A study of Mus musculus with 6 samples.

Results

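The transcripts examined were those of NAD synthesis and of the sirtuins in mGLUTag cells, measured at 4 h and 16 h after synchronization. They comprise Nampt, 3 other NAD synthesis genes (Nmnat1, Nmnat3 and Nadsyn1) and 6 sirtuins (Sirt1, Sirt2, Sirt3, Sirt5, Sirt6 and Sirt7). In the array table they carry the symbols NAMPT, NMNAT1, NMNAT3, NADSYN1, SIRT1, SIRT2, SIRT3, SIRT5, SIRT6 and SIRT7. All probes with one of these 10 symbols were taken, which gave 17 of 45281 probes and 10 of 30854 symbols, and each gene had at least 1 probe. The mGLUTag line is an immortalized murine model of the enteroendocrine L-cell, the intestinal cell that secretes glucagon-like peptide-1. The cells were held in low serum, exposed to forskolin, which raises cAMP and sets the clocks of the culture in step, and returned to growth medium. Total RNA was collected at 4 h (n = 3) and at 16 h (n = 3), chosen by the study for the high and low points of the clock gene Arntl (Bmal1), and all 6 samples received the same synchronization. No unsynchronized samples were analysed here, both groups are of a single cell line, and the labels do not state whether the replicates of a time point were separate cultures, so that the p-values measure the spread between these samples.

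NAD is both a redox carrier and a substrate that is consumed, and cells regain most of it through salvage of nicotinamide. Nampt encodes nicotinamide phosphoribosyltransferase, the rate-limiting enzyme of that salvage, and its transcription is activated through E-boxes by the clock factors CLOCK and BMAL1 in liver and other tissues. The Nmnat enzymes complete the synthesis of NAD from its mononucleotide, and Nadsyn1 encodes the glutamine-dependent NAD synthetase that finishes the routes from nicotinic acid and tryptophan. The sirtuins are NAD-dependent deacylases, of which SIRT1 acts on clock proteins and thereby links NAD back to the clock.

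The sequences before the transcription start were examined first, since Nampt was chosen as a clock-controlled gene. Windows from 250 bases before to 50 bases after the start were taken from RefSeq (GRCm38.p6) for all 10 genes, 13 windows in all. Both strands were searched for the E-box CACGTG, the related CACGTT, the D-box (TTATGTAA or TTACGTAA) and the cAMP response element TGACGTCA, none of which overlapped another here. Sirt1 was the only one of the 10 genes with a match, and it held CACGTG at positions -115 and -43 from the start. This motif is found in 7.15% of 32851 windows of the same length, CACGTT in 4.68%, the D-box in 1.06% and the cAMP response element in 1.79%. The window of Nampt held none of these letters, which says nothing of binding outside it. The bases before the start are shown for these genes because one is the enzyme taken as clock-controlled and the other is the member with the motif. Capitals mark CACGTG, the bases before Nampt lie at chr12:32820085-32820334 on the + strand, and those before Sirt1 at chr10:63339036-63339285 on the - strand.
Nampt: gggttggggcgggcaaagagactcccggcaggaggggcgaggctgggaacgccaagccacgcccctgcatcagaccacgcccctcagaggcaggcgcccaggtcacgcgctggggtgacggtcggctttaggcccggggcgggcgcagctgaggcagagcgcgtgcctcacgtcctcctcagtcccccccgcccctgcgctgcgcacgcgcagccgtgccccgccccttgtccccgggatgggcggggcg
Sirt1: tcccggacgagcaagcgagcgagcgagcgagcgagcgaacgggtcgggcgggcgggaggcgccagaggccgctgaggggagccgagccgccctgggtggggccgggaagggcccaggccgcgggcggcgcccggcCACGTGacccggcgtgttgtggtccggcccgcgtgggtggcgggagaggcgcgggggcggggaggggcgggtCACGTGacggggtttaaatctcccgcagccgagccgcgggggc

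The arrays carried 1 background-subtracted intensity per probe on a linear scale, with array means between 216 and 353.9. As a detection limit, the values below zero of each array were mirrored and their 99th percentile was taken, which lay between 9.2 and 14. The 4 h arrays were brighter than the 16 h arrays by a ratio of 1.37. The 14941 probes above the limit on all arrays had a median intensity ratio of 1.46 between 4 h and 16 h, so changes were tested on quantile-normalized log2 intensities and are relative to the other probes. The arrays also differed in the level of 18S ribosomal RNA (3 probes), whose mean log2 intensity was 8.50, 6.91 and 10.57 at 4 h against 9.24, 7.71 and 7.02 at 16 h, in replicate order. Of 12 L-cell markers, 9 exceeded the detection limit on 3 or more arrays, Gcg among them. Pyy lay above it on no array, and Pcsk1 on 1 array. Of the markers of other cell types, only Vil1 (enterocyte), Tff3 (goblet cell) and Col1a1 (fibroblast) passed that filter, and 0 of 5 leukocyte markers did. All samples are of a single cell line, so these markers do not measure a mixture of tissue cells. Fewer cells of the line that express a gene and less RNA per cell cannot be told apart in such bulk samples.

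Most of the genes were detectable. Of the 17 probes, 12 exceeded the detection limit on all arrays, 13 did on 3 or more, and these 13 represented 8 of the 10 genes. The remaining genes, Nmnat1 and Nmnat3, stayed near or below the limit.

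No member was called as changed between 4 h and 16 h. In the same fit Arntl, whose high and low points set the time points, was not called either (log2 change 0.52, adjusted p by limma = 0.138). The lack of a call is therefore no evidence that a member was unchanged. With the Benjamini-Hochberg adjustment of limma over the 45281 probes, 0 of the 17 probes were called higher at 4 h (0.00442% of all probes were) and 0 lower (0.00442%), 0.00883% in either direction. The smallest limma adjusted p among the members was 0.919. At an unadjusted p under 0.05, 1 of the 17 probes passed, that of Sirt7, against 5.42% of all probes and 10.9% of those above the limit on all arrays. Of the 12 probes above the limit on all arrays, 9 had a change below 0 and 3 a change above 0, with a median of -0.03 on the log2 scale. All 9 directions below 0 turned without normalization between arrays, where the median of all probes above the limit on all arrays was 0.39. In the deposited intensities 98.2% of those probes had a higher mean at 4 h, so these turns are nothing particular to the members. Over the 14941 such probes 49.6% had a change below 0 and the median was 0.0014. The changes of the 12 probes ran from -0.23 to 0.23 with SE between 0.079 and 0.16, and the 5th and 95th percentiles of the 14941 probes were -0.26 and 0.24. For none of the 12 probes were the normalized values of the time points free of overlap, against 11.6% of all such probes (5.51% with 4 h lower and 6.12% with 4 h higher).

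**Figure D1:**
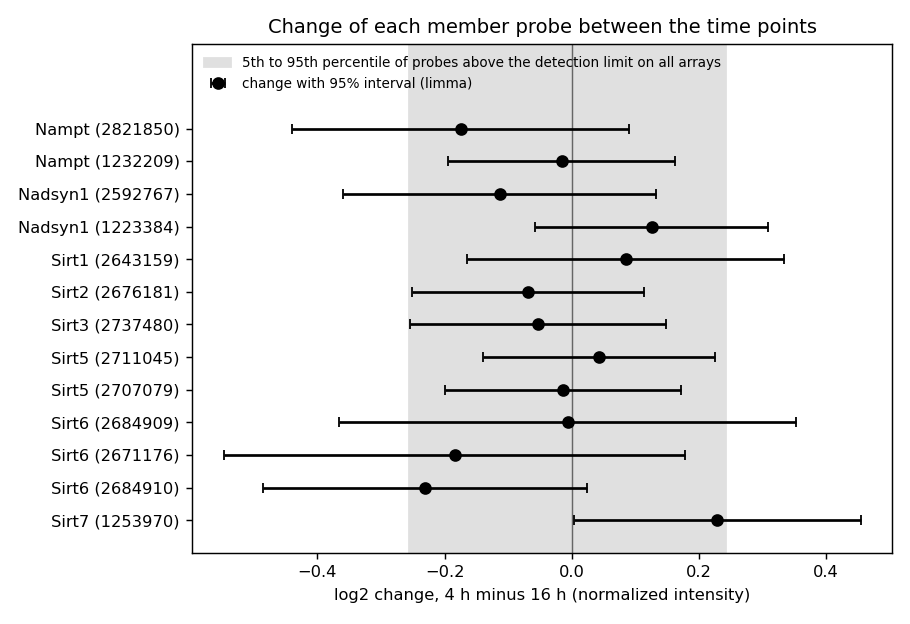
Log2 change (4 h minus 16 h, normalized intensity) of the 13 probes above the detection limit on 3 or more arrays, with 95% intervals from limma (n = 3 per time point). The grey band spans the 5th to the 95th percentile, -0.26 to 0.24, of all probes above the limit on all arrays, and the interval of Sirt7 alone lies to one side of 0, from 0.0029 to 0.45.

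Nampt was examined in most detail. At its brighter probe (ILMN_2821850), the deposited intensities were 241, 209 and 178 at 4 h against 169, 161 and 164 at 16 h. All 4 h values were above all 16 h values, which was so for 5 of the 12 member probes and for 49.2% of the probes above the limit on all arrays. The ratio of the means was 1.27, below the median ratio of 1.46 of those probes. After normalization the values were 7.92, 8.10 and 7.66 at 4 h against 8.03, 7.96 and 8.23 at 16 h. The time points overlapped on this scale, with the lowest value on 4 h replicate 3 and the highest on 16 h replicate 3. The log2 change was -0.17 (SE 0.12, 95% interval -0.44 to 0.090, adjusted p by limma = 0.948). It was -0.06 without 4 h replicate 3, -0.098 without 16 h replicate 3 and -0.28 without 4 h replicate 2, and it was not called in any of these. The direction turned with the scaling. The change was 0.18 after median scaling and 0.27 without normalization between arrays, while the median over detected probes became 0.30 and 0.39. The second probe of Nampt (ILMN_1232209) lay nearer to the detection limit, with intensities of 29.4, 14.5 and 29.7 at 4 h against 22.5, 12.7 and 16 at 16 h. Its log2 change was -0.02 (SE 0.079, 95% interval -0.19 to 0.16, adjusted p by limma = 0.995). The probes of Nampt did not follow each other over the 6 arrays (r = -0.19, rho = -0.086).

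**Figure D2:**
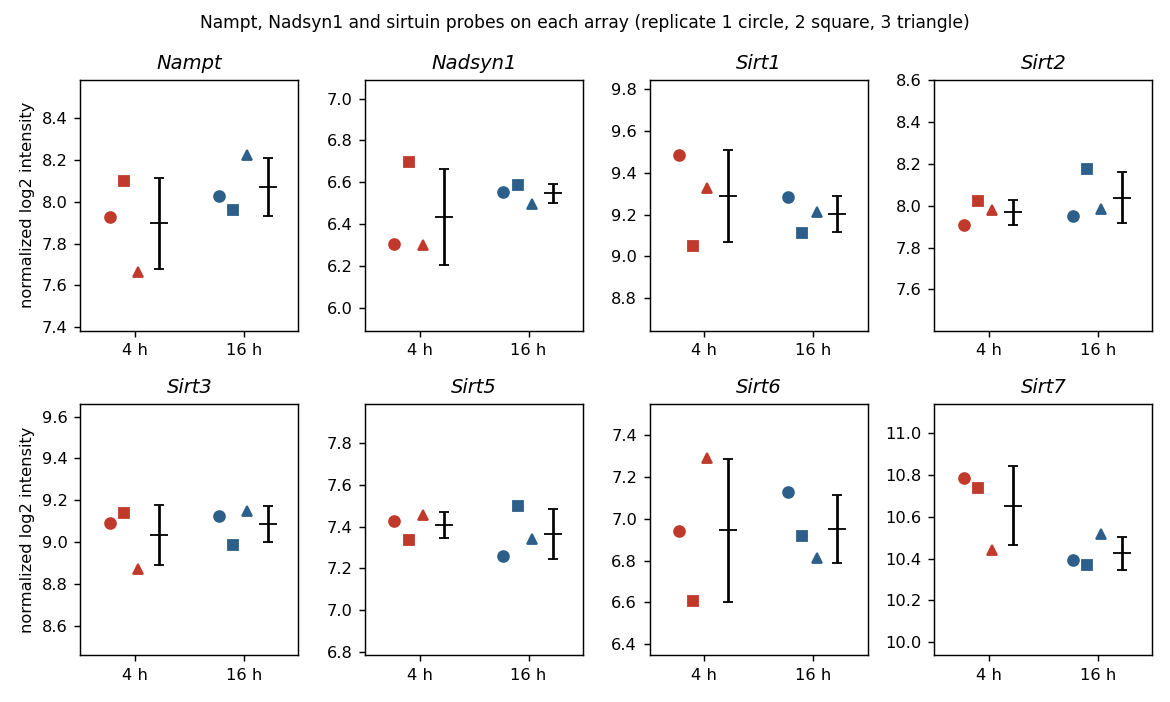
Normalized log2 intensity on each array for the brightest probe of the 8 genes above the detection limit, at 4 h (red) and 16 h (blue). Circles, squares and triangles are replicates 1, 2 and 3, the bars are mean ± SD (n = 3), each panel spans 1.2 log2 units, and the time points overlap in all 8 panels.

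Among the other NAD synthesis genes, Nadsyn1 had 3 probes, of which the 2 that could be measured differed in direction. The first (ILMN_2592767) had intensities of 23.7, 38.8 and 19 at 4 h against 27.6, 28.4 and 19.1 at 16 h, with 4 h replicate 2 the highest and 4 h replicate 3 the lowest. Its log2 change was -0.11 (SE 0.11, 95% interval -0.36 to 0.13). It was -0.25 without 4 h replicate 2, -0.046 without 4 h replicate 1, -0.042 without 4 h replicate 3 and -0.47 without background correction. The second (ILMN_1223384) had intensities of 37.7, 21.8 and 34.9 at 4 h against 21.2, 9.5 and 15.2 at 16 h, above the limit on 5 arrays. Its log2 change was 0.13 (SE 0.081, 95% interval -0.058 to 0.31), and the third exceeded the limit on no array. The second was 0.052 without 16 h replicate 2 and 0.55 without background correction. Neither of the measured probes passed the threshold (adjusted p by limma = 0.962 and 0.946).

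Nmnat1, which encodes the nuclear adenylyltransferase, was represented by 1 probe (ILMN_2502596), with intensities of 12.6, 13.4 and 13 at 4 h against 6.9, 3.1 and 4.8 at 16 h. It exceeded the limit on 2 of the 3 arrays at 4 h and on none at 16 h, and the bound at the limit allows no fold difference to be given. Its normalized log2 intensities of 6.21 ± 0.050 at 4 h and 6.09 ± 0.044 at 16 h (SD, n = 3) did not overlap, as for 5.93% of the 3559 probes above the limit on 1 or 2 arrays with 4 h higher, and the probe was not called (adjusted p by limma = 0.924). Nmnat3, which encodes the mitochondrial form, had 2 probes. One exceeded the limit on 1 array (16 h replicate 2, at 11.4) and the other on none, so no change is given.

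The nuclear sirtuins came next. Sirt1 (ILMN_2643159) had intensities of 831, 479 and 722 at 4 h against 479, 438 and 375 at 16 h. Values at 4 h lay above those at 16 h, by a margin of under 1 unit between 4 h replicate 2 and 16 h replicate 1. The intensity ratio of 1.57 was close to the median ratio of 1.46. After normalization the levels were 9.29 ± 0.22 at 4 h and 9.20 ± 0.087 at 16 h (SD, n = 3), with overlap. The log2 change was 0.085 (SE 0.11, 95% interval -0.16 to 0.33, adjusted p by limma = 0.971). The direction turned without 4 h replicate 1 (-0.012), and the change was 0.20 without 4 h replicate 2. It was 0.48 after median scaling and 0.57 without normalization between arrays, where the median over detected probes was 0.30 and 0.39, and it was not called.

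Sirt7, which encodes a nucleolar deacylase known to associate with ribosomal RNA genes, had the highest change of the members with all arrays and the background correction included. Without 4 h replicate 2 it was 0.19 against 0.20 for Sirt1, and without background correction it was 0.24 against 0.55 for the second Nadsyn1 probe. Its deposited intensities were 2170, 1714 and 1621 at 4 h against 1089, 1121 and 1030 at 16 h, a ratio of 1.70, and the time points did not overlap. The normalized values were 10.79, 10.74 and 10.44 at 4 h against 10.39, 10.37 and 10.52 at 16 h, so that 4 h replicate 3 lay below 16 h replicate 3. The log2 change was 0.23 (SE 0.0996, 95% interval 0.0029 to 0.45), at the percentile 94.1 of the probes above the limit on all arrays. Over all probes it was not called (unadjusted p = 0.0477, adjusted p by limma = 0.919). The change was between 0.16 and 0.34 when 1 array was left out, the latter without 4 h replicate 3. Sirt7 was called after median scaling (0.64, adjusted p by limma = 0.0371) and without normalization between arrays (0.73, adjusted p by limma = 0.0329), where the shift of the median probe is part of each value.

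Sirt6, a chromatin-bound deacylase, was measured by 3 probes whose patterns differed. ILMN_2684909 had intensities of 83.2, 32.8 and 120 at 4 h against 67.3, 49.2 and 34.2 at 16 h, which gave a log2 change of -0.0063 (SE 0.16). ILMN_2684910 had 59.2, 20.6 and 67.3 at 4 h against 54.2, 47.2 and 34 at 16 h. In these intensities both were lowest on 4 h replicate 2 and highest on 4 h replicate 3, whereas the normalized values of ILMN_2684910 were highest on 16 h replicate 1 (6.96). The log2 change of ILMN_2684910 was -0.23 (SE 0.11, 95% interval -0.49 to 0.024, adjusted p by limma = 0.920), the lowest of the members with all arrays included. It was -0.10 without 4 h replicate 2, where Nampt was lower at -0.28, and -0.60 without background correction. ILMN_2671176 had 55, 61.7 and 69.6 at 4 h against 31.8, 74.5 and 59.2 at 16 h, and its log2 change was -0.18 (SE 0.16, adjusted p by limma = 0.959). That value was -0.39 without 16 h replicate 1 (adjusted p by limma = 0.490), and it was -0.082 without 16 h replicate 2, -0.089 without 4 h replicate 1 and -0.090 without 16 h replicate 3. The probe was lowest on 16 h replicate 1, where the first was above its own mean. With the probes of a gene averaged, the change of Sirt6 was -0.14 (SE 0.090, adjusted p by limma = 0.921), and those of Nampt, Nadsyn1 and Sirt5 were -0.096, -0.0093 and 0.014.

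The sirtuins of the cytosol and mitochondria had changes between -0.069 and 0.042. Sirt2 (ILMN_2676181), which encodes a mainly cytosolic tubulin deacetylase, had intensities of 237, 195 and 242 at 4 h against 158, 198 and 133 at 16 h, and a log2 change of -0.069 (SE 0.080, 95% interval -0.25 to 0.11). Sirt3 (ILMN_2737480), the main mitochondrial deacetylase, had 619, 514 and 514 at 4 h against 417, 395 and 356 at 16 h. Its intensity ratio of 1.41 was near that of the median probe, and its log2 change was -0.053 (SE 0.089, 95% interval -0.26 to 0.15). It was 0.35 after median scaling (adjusted p by limma = 0.0692) and 0.44 without normalization between arrays, where it was called (adjusted p by limma = 0.047). Sirt5, which encodes a mitochondrial desuccinylase, was measured by 2 probes with log2 changes of 0.042 (SE 0.081) and -0.014 (SE 0.082). These probes had intensities between 67.8 and 149 (ILMN_2711045) and between 40 and 100 (ILMN_2707079) over the 6 arrays. Limma adjusted p was between 0.967 and 0.996 for these 4 probes, and their 95% intervals lay between -0.26 and 0.23. After median scaling and without normalization between arrays, Sirt5 was 0.34 and 0.43 at ILMN_2711045 and 0.23 and 0.32 at ILMN_2707079. The median over detected probes was 0.30 and 0.39 in these settings, and neither Sirt5 probe was called. Sirt4, which was not among the 10 genes and completes the family, had a log2 change of 0.019 (SE 0.13, adjusted p by limma = 0.997).

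To compare Nampt with the other members, the difference in normalized log2 intensity was taken on each array and the time points were compared in 7 pairs, with the brightest probe of each gene. With these probes Nampt had the lower change in all 7, with differences between -0.062 (Nadsyn1) and -0.40 (Sirt7). The change of Nampt lay at the percentile 11.6 of the probes above the limit on all arrays, so most other probes also had a higher change. All 7 pairs share the same Nampt values, and their count is read as nothing particular to these genes. The order depended on the probe, as the other Sirt6 probes (-0.18 and -0.23) lay below Nampt (-0.175) and the second Nampt probe (-0.016) lay above Nadsyn1, Sirt2 and Sirt3. With the probes of a gene averaged, the change was -0.096 for Nampt and -0.14 for Sirt6. Nampt was the lower in 6 of the 7 pairs without background correction, after median scaling and without normalization between arrays, and in 5 without 4 h replicate 3. Against Sirt7 the difference was -2.86, -2.64 and -2.78 at 4 h against -2.36, -2.41 and -2.29 at 16 h. These values did not overlap, and Nampt was lower relative to Sirt7 on every 4 h array. The difference in change was -0.40 (SE 0.074, 95% interval -0.61 to -0.20), and the exact two-sided permutation test gave p = 0.1, the smallest value for 3 arrays against 3, and 0.7 after adjustment over the 7 pairs. Nampt was likewise lower without overlap against 10.5% of all other probes above the limit, and separate in either direction against 10.9%. In the remaining 6 pairs the time points overlapped and the exact permutation p was between 0.2 and 0.8. The intervals were -0.43 to 0.30 against Nadsyn1, -0.92 to 0.40 against Sirt1, -0.61 to 0.40 against Sirt2, -0.32 to 0.075 against Sirt3, -0.78 to 0.35 against Sirt5 and -1.16 to 0.83 against Sirt6. These widths leave room for differences in either direction.

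Nampt was then set beside the clock genes that are driven through E-boxes, as it is known to be. Of 13 such genes, 9 exceeded the detection limit on 3 or more arrays, and all 9 had a change below 0, with a median of -0.46, where the median over all probes above the limit was 0.0014. Only Tef, a PAR bZIP output factor, passed the threshold (-0.82, SE 0.077, adjusted p by limma = 0.0338). That call was lost without any 1 of the 6 arrays, with the replicate block, an offset of 16, the filter, the trend and robust variance, median scaling and no normalization between arrays, where 0 of all probes were called lower. The log2 difference of Ciart, a repressor of the clock, was -0.55 (SE 0.094, adjusted p by limma = 0.217), and that of Bhlhe40, a repressor of the DEC family, was -0.41 (SE 0.082, adjusted p by limma = 0.323). In 8 of the 9 the normalized 4 h values lay below the 16 h values without overlap. The share was 5.51% among probes above the limit on all arrays. On the deposited scale this was so for 1 of the 9, Tef, with overlap in the other 8. The matching share over all probes was not counted on that scale. There, the 4 h mean exceeded the 16 h mean for 98.2% of the probes detected on every array. In the deposited intensities, which keep the greater brightness of the 4 h arrays, the log2 ratio of the means was above 0 for Per1 (0.15) and Per2 (0.01), and the mean of Nr1d1 was also slightly higher at 4 h. The other 6 were below 0, with Dbp (-0.0031) and Nr1d2 (-0.021) near it, Bhlhe40 at -0.15, Ciart at -0.20, Cry2 at -0.35 and Tef at -0.53. The change of Nampt at its brighter probe was closer to 0 than that of 8 of the 9 genes, all but Nr1d1 (-0.12, SE 0.078). The exception depended on the probe, as the second Nampt probe (-0.016) and the mean of the Nampt probes (-0.096) were closer to 0 than Nr1d1. The differences that follow use the brighter probe. The per-array difference between Nampt and the other gene did not overlap between time points for Tef (0.64, 95% interval 0.20 to 1.08), Ciart (0.38, -0.0087 to 0.76), Nr1d2 (0.32, -0.0084 to 0.65) and Dbp (0.31, 0.026 to 0.59). In this direction Nampt was separate from 0.415% of all other probes above the limit on all arrays. Each of these 4 gave an exact permutation p of 0.1, the smallest possible, and 0.225 after adjustment over 9 pairs. For Per1, Per2, Cry2, Nr1d1 and Bhlhe40 the differences from Nampt overlapped.

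**Figure D3:**
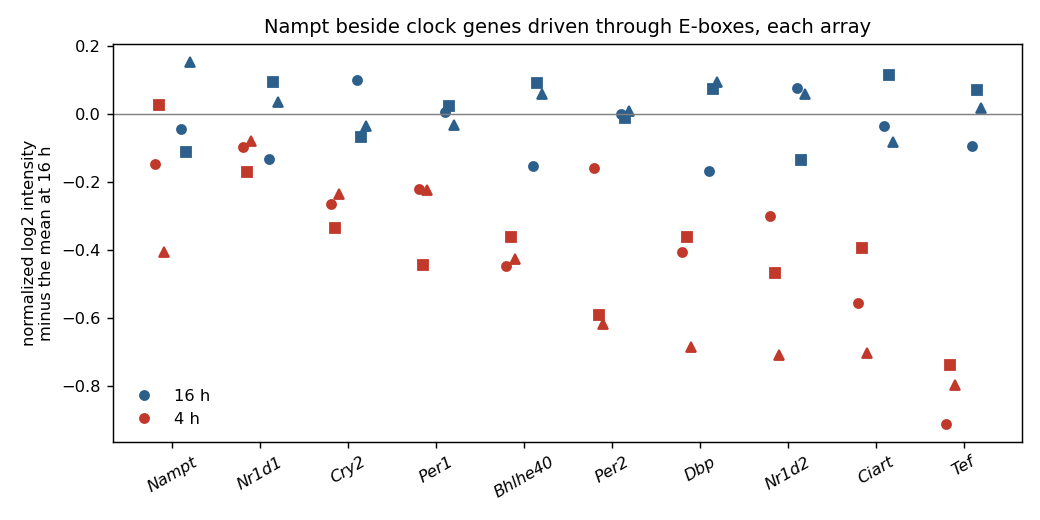
Normalized log2 intensity on each array minus the mean at 16 h for Nampt and the 9 E-box clock genes above the detection limit, ordered by change (4 h red, 16 h blue; circles, squares and triangles are replicates 1, 2 and 3). The 4 h and 16 h values overlap for Nampt and Nr1d1 and are separate for the other 8 genes.

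The other genes of NAD metabolism were counted in the same way. Of 16 further genes of NAD synthesis, 15 had a probe, and 11 of these exceeded the detection limit on no array, among them Tdo2, Kmo, Kynu, Haao and Qprt of the route from tryptophan. The 3 that passed the filter were Afmid, the formamidase of that route (log2 change -0.12, SE 0.11), Naprt, which starts synthesis from nicotinic acid (-0.087, SE 0.085), and Nmnat2, the Golgi-associated adenylyltransferase (0.048, SE 0.072). Of 6 genes of NAD phosphorylation, transport and redox, only Nadk, the cytosolic NAD kinase, passed the filter (0.083, SE 0.086). Of 22 genes of NAD consumption and nicotinamide clearance, 12 passed it, with 6 changes below 0, 6 above and a median of -0.0098. The 3 with the smallest p were Parp2, a DNA damage sensor (-0.17, SE 0.076), Parp6 (-0.18, SE 0.082) and Parp16, an enzyme of the endoplasmic reticulum (-0.20, SE 0.10). The normalized values of Parp6 at 4 h lay below those at 16 h without overlap, as for 5.51% of the probes above the limit on all arrays, while its deposited intensities at 4 h were all above those at 16 h. Cd38, Bst1 and Sarm1, which encode NAD hydrolases, exceeded the limit on no array. In these 3 lists 0 genes were called by limma in either direction, and limma adjusted p was 0.919 or more for each gene named.

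The level of 18S ribosomal RNA was set beside the members over the 6 arrays. The brighter Nampt probe (ILMN_2821850) was lowest on the array with the most 18S signal, 4 h replicate 3, and its correlation with the 18S level over the 6 arrays was r = -0.86 (rho = -0.77). The second Nampt probe (ILMN_1232209) went the other way (r = 0.64, rho = 0.66), and at 16 h the brighter probe was not in the order of the 18S level. An absolute r of 0.8 or more was found for 2 of the 12 member probes and for 13.7% of all probes above the limit on all arrays. The first Sirt6 probe (ILMN_2684909) followed the 18S level in unbroken order (r = 0.95, rho = 1), and the third (ILMN_2671176) was lower on all 3 arrays with the most 18S than on the others. Sirt1 was higher on those 3 arrays, with a mean log2 difference of 0.24. Of the 12 probes above the limit on all arrays, 4 separated the arrays in this way (Sirt1, Sirt2 and 2 of Sirt6), and so did 20.2% of all such probes. These are descriptions over 6 arrays that share the time points, and such counts on 12 probes are read as nothing particular to the members. With the 18S level as a covariate the change of Nampt was -0.10 (SE 0.085) and that of Sirt7 was 0.28 (SE 0.085), and neither was called (adjusted p by limma = 0.943 and 0.592). The same covariate moved the Sirt6 probes ILMN_2684909 and ILMN_2684910 to -0.12 and -0.30, the latter with the smallest member value (adjusted p by limma = 0.434). With the arrays divided at the midpoint of the 18S range, the change of Nampt was -0.081 among the 4 lower arrays and -0.36 between the 2 higher arrays, and that of Sirt7 was 0.32 and 0.047. Other member probes turned in direction between these classes, among them Sirt3 (0.047 and -0.25) and the Sirt6 probe ILMN_2671176 (-0.40 and 0.25). The higher class held 1 array per time point and has no spread, so the classes cannot be compared. The part of the 18S signal in these values was not tested further.

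**Figure D4:**
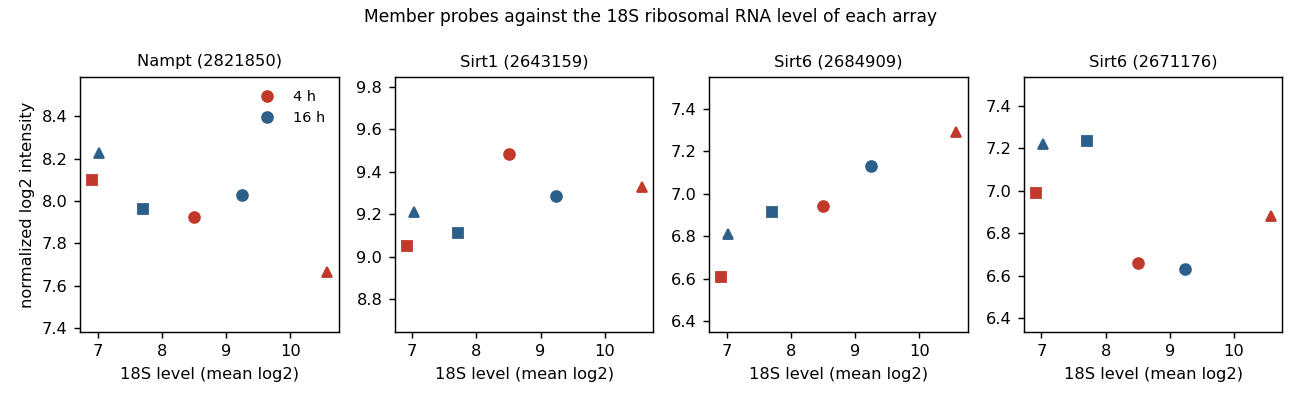
Normalized log2 intensity of 4 member probes against the mean log2 intensity of the 3 probes for 18S ribosomal RNA on each array (4 h red, 16 h blue; circles, squares and triangles are replicates 1, 2 and 3). The brighter Nampt probe is lower and the first Sirt6 probe higher towards the high end of the 18S level, which ran from 6.91 to 10.57.

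The probes whose pattern was most like that of Nampt were sought among those above the limit on all arrays. The 5 with the highest Pearson correlation over the 6 arrays belonged to 1700016J18Rik, 1600002K03Rik, Atox1, Bola3 and Sgcb, with r between 0.9896 and 0.9948. Their log2 changes lay between -0.30 (Atox1) and -0.13 (Sgcb), and limma adjusted p was between 0.939 and 0.953. Among the members Sirt3 was the most similar (r = 0.90, rho = 0.94). These likenesses are descriptions over 6 arrays that share the time points and the scaling.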

How the data were processed

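Total RNA of synchronized mGLUTag cells (4 h, n = 3; 16 h, n = 3) was hybridized by the authors to a mouse Illumina BeadChip. The deposited intensity values are linear, background-subtracted and not normalized between arrays; 31.2% to 34.0% of them per array were negative. The scanner software, background method and slides are not given in the sources used here. Samples were grouped by the time in their titles.

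Background was modelled with normexp (offset 50), followed by quantile normalization and log2 transformation in R 4.3.3 with limma 3.58.1. Time point was the only term, and the study's methods likewise name linear models in limma. Two-sided p-values from lmFit and eBayes received a Benjamini-Hochberg correction across 45281 probes (threshold 0.05). The offset shrinks the changes of dim probes, and quantile normalization removes a change shared by most transcripts. A change is given for probes that passed the detection limit on at least 3 arrays. For each gene of a list the probe of highest mean log2 intensity was used, matched by symbol or by a RefSeq synonym held by no other gene.

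For pairs of genes, the per-array difference was compared by an exact two-sided permutation test, with an interval from lmFit without variance moderation, since every difference shares Nampt. The pairs with E-box genes were added after the data had been seen. Arrays carry no counts, so their number limits the precision.

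The members and lists, and the alternatives, were chosen with earlier results of these data known. Named were all probes of the members, the 3 genes with the smallest p above the detection limit in each list, and the 5 probes most correlated with Nampt; other genes were named after their values had been seen. Alternatives covered background correction, normalization, a filter, variance moderation, array weights, the replicate number and 18S level as further terms, and leaving out each array. The fit was tested on simulated data beforehand. Of 200 probes given a log2 change of 1, it recovered 195, and it made 18 false calls. Smaller changes, such as those of the members, were not simulated.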

Additional observations from a re-analysis of the deposited data

How the results depend on the processing

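The direction of Nampt depended on the scaling of the arrays. Its log2 change was reversed with median scaling (0.18) and with no between-array normalization (0.27), settings that keep the brightness of the 4 h arrays and in which the detected probes had a median of 0.30 and 0.39. It stayed below 0 in the other 16 alternatives run, ran from -0.28 to -0.06 over the fits that lack 1 array, and Nampt was called in none of the 18. Among the member probes 1 was called with median scaling (Sirt7) and 2 with no between-array normalization (Sirt7 and Sirt3, both higher), and 0 in every other alternative and without each array. Nampt had the lower change in 7 of 7 pairs, in 6 without background correction, with median scaling and with no between-array normalization, and in between 5 and 7 without 1 array, the fewest without 4 h replicate 3. Its change lay at the percentile 11.6 of the probes above the limit on all arrays, so most other probes also had a higher change.

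Of all probes, 2 were higher and 2 lower. The numbers higher and lower were 19 and 10 without background correction, 0 and 0 with an offset of 16, 832 and 0 with median scaling, 0 higher with cyclic loess, 2308 and 0 with no between-array normalization, 0 and 0 with the filter at the detection limit, 1 and 0 with trend and robust variance, and 5 higher with the 18S class of the array as a block. With each array left out, the numbers were between 0 and 0. The filter and the left-out arrays reduce the probes or samples fitted; for the other settings the cause was not tested.

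With median scaling and with no between-array normalization, further directions were reversed. These settings also moved the other detected probes, whose median was 0.30 and 0.39. Reversed were the second Nampt probe (0.091 and 0.18), Sirt2 (0.29 and 0.37) and Sirt3 (0.35 and 0.44). So were the Sirt5 probe ILMN_2707079 (0.23 and 0.32) and the Sirt6 probes ILMN_2684909 (0.23 and 0.32) and ILMN_2671176 (0.048 and 0.14). Of these only Sirt3 lay above the median of the detected probes, and the others lay below it. The share of all detected probes that turned was not counted. The Nadsyn1 probe ILMN_2592767 (0.083) and the Sirt6 probe ILMN_2684910 (0.070) were reversed only without between-array normalization, and Sirt5 ILMN_2707079 also with array weights (0.0049). Changes near 0 crossed it when an array was left out: the second Nampt probe ran from -0.076 to 0.025, Sirt1 from -0.012 (without 4 h replicate 1) to 0.20, Sirt2 from -0.11 to 0.0009, Sirt3 from -0.10 to 0.028, the Sirt5 probes from -0.011 to 0.11 and from -0.080 to 0.035, and Sirt6 ILMN_2684909 from -0.17 to 0.16. Sirt7 kept its direction in all 18 alternatives run.

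Arrays of the same replicate number did not deviate together in all 3 pairs (correlations 0.25, 0.17 and -0.49), so the numbers were not taken as pairs. Fitting the replicate block called 0 probes higher and 0 lower over the whole table, and the change of Nampt was -0.17 (adjusted p by limma = 0.965). Where limma made 0 calls in both directions, 1028 to 3219 probes had an unadjusted p under 0.05. The 18S covariate, chosen after seeing the data, left 2 probes higher and 2 lower.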

Other observations

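Genes whose proteins are targets or partners of the sirtuins were considered in addition. Of 14 targets and partners of SIRT1, 12 passed the detection limit on at least 3 arrays, with 10 changes above 0, 2 below 0 and a median of 0.039. Over all probes above the limit on all arrays, 49.6% had a change below 0 and the median was 0.0014. Whether the list differs from that share was not tested. The 3 with the smallest p were Arntl and Clock, which encode the partners of the activating clock complex, and Tfam, a factor of mitochondrial DNA. The log2 difference was 0.52 for Arntl (SE 0.069, adjusted p by limma = 0.138), 0.22 for Clock (SE 0.10, adjusted p by limma = 0.919) and 0.11 for Tfam (SE 0.077, adjusted p by limma = 0.953). On the normalized scale 1 of the 12, Arntl, had all 4 h values above the 16 h values, as did 6.12% of the probes above the limit on all arrays, and in the deposited intensities 7 of the 12 did, against 49.2% of those probes. The study chose the time points for the high and low points of Arntl. Its direction was therefore set in advance and is no result about the targets of SIRT1. Ppargc1a, which encodes the coactivator PGC-1α, lay above the limit on no array.

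Of 13 mitochondrial targets of SIRT3 and SIRT5, 12 had a probe and 7 passed the filter, with 4 changes above 0, 3 below 0 and a median of 0.023. The highest change was that of Acadl, the long-chain acyl-CoA dehydrogenase, whose intensity was 248 at 4 h and 125 at 16 h (log2 change 0.31, SE 0.085, adjusted p by limma = 0.601). The log2 difference of Glud1, glutamate dehydrogenase, was 0.21 (SE 0.069, adjusted p by limma = 0.739). The normalized values of Acadl and Glud1 at 4 h lay above those at 16 h without overlap, which makes 2 of 7 genes against 6.12% of the probes above the limit on all arrays. In the deposited intensities 7 of the 7 did, against 49.2%. Idh2, the mitochondrial isocitrate dehydrogenase, had a log2 difference of -0.17 (SE 0.15, adjusted p by limma = 0.959). By limma 0 genes of either list were called.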
